A study of Salmo salar with 72 samples.

Results

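Genes of autophagy and the lysosome were followed in primary hepatocytes of Atlantic salmon (Salmo salar) after 48 h with one of 3 arsenic compounds: AsIII (arsenite), AsV (arsenate) or AsB (arsenobetaine). They were chosen by their deposited names. A gene was taken where its name held autophagy, beclin, light chain 3, gamma-aminobutyric acid receptor-associated protein, V-type proton ATPase, cathepsin, lysosom or WD repeat domain phosphoinositide-interacting. Symbols sqstm1 and sqstm and names with dynein were to be left out, which removed 0 genes. The genes so chosen are 0.689% of the 25830 genes in the table. By their names, 10 belonged to the ATG8 family, 42 to the other autophagy core, 42 to the V-type proton ATPase (V-ATPase) and 25 to the cathepsins. A further 27 were lysosomal membrane and trafficking genes, 19 were other lysosomal hydrolases and 11 were subunits of the complex that builds lysosome-related organelles (BLOC-1). The remaining 2 were a lysosomal thiol reductase-like gene and gba2, whose name says non-lysosomal and which entered by its words.

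The cells came from the livers of 6 male fish and were cultured on porous polystyrene scaffolds, and each library is 1 culture of 1 fish. AsIII was tested as a control and at 3, 10, 30 and 100 µM in cells of all 6 fish (30 libraries). AsV was tested as a control and at 10, 50 and 100 µM in cells of fish 1 to 3 only (12 libraries). AsB was tested as a control and at 10, 50, 100 and 500 µM in cells of all 6 fish (30 libraries). Each compound had its own control cultures, and the 14 groups follow the sample titles; a treatment text in the labels also names arsenosugar and other doses. Cultured primary hepatocytes lack the blood flow and most of the other cell types of the liver, and only males were used.

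As background, autophagy encloses cytoplasm in a membrane that carries lipid-linked ATG8 proteins (the LC3 and GABARAP families) and delivers it to the lysosome. The V-ATPase acidifies the lysosome, cathepsins and other hydrolases digest what arrives, and glycoproteins such as LAMP1 and LAMP2 line its membrane. In liver cells this route turns over proteins, glycogen, lipid droplets and damaged organelles, and it is known to respond to fasting and to many kinds of stress.

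Depth ran from 30915262 to 86419022 recovered reads per library. Values are read counts divided by a size factor per library, here called normalized counts, and changes are log2(value + 1) differences with their standard error (SE). Genes rose or fell where limma gave an adjusted p of 0.05 or less over all genes tested. Hepatocyte markers (28 genes for albumin, transferrin, apolipoprotein A-I, fibrinogen and complement C3) made up 10.5% to 15.1% of the counts in every library. Haemoglobin genes (8) reached at most 0.00191% and the 2 leukocyte markers ptprc and mpeg1 at most 0.000454%, and 2 biliary and 4 endothelial markers at most 0.000343% and 0.000408%. Salmon carry many near-identical gene copies, and how reads that match several copies were counted is not given in the sources used here, so values of single copies are uncertain.

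AsIII moved many of these genes at every dose. With the deposited scaling, rises outnumbered falls at 3 µM and falls outnumbered rises at 30 and 100 µM. With library-size scaling, given further on, falls outnumbered rises at every dose, both among these genes and over all genes. At 3 µM AsIII, 76 rose and 40 fell of all the genes chosen, where 29.5% of all genes tested rose and 25% fell. Their median change was 0.22, against 0.05 for all genes. At 10 µM, 44 rose and 43 fell (all genes, 26.8% and 20.5%), with a median of 0.03 against 0.06. At 30 µM, 33 rose and 51 fell (all genes, 23.9% and 17.7%), with a median of -0.13 against 0.04. At 100 µM, 30 rose and 57 fell (all genes, 22.6% and 17.3%), with a median of -0.14 against 0.04. The members rose more often than all genes at 3 µM, and they fell more often than all genes at 30 and 100 µM. All 4 doses share the same 6 control libraries.

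The balance of directions depended on the scaling. With each library scaled to its total count instead of the size factors, 49 rose and 66 fell at 3 µM, 24 rose and 81 fell at 10 µM, 24 rose and 73 fell at 30 µM and 23 rose and 66 fell at 100 µM. Over all genes that scaling gave 5647 rises and 9304 falls at 3 µM, in place of 7621 and 6453. It gave 4366 rises and 9078 falls over all genes at 10 µM, 4907 and 6137 at 30 µM and 5026 and 5468 at 100 µM. Falls thus outnumbered rises over all genes at every dose, and counts by role under that scaling are to be read beside this. That scaling shifts the median of all genes by -0.26, -0.30, -0.12 and -0.08 at 3, 10, 30 and 100 µM. Relative to the median of all genes, the members' median lay at 0.17, -0.03, -0.17 and -0.18 at those doses. Scaling by 1 factor per library shifts the changes of all genes nearly alike, so this distance could hardly differ between the scalings. Hepatocyte markers moved at the lowest dose as well: they held 10.99% to 11.9% of counts at 3 µM AsIII, against 13.4% to 14.3% in AsIII controls, with no overlap. At 10 to 100 µM they held 12.9% to 15.1%. Of the 8 haemoglobin genes 2 rose at 3 µM, 1 rose at 10 µM and 4 fell at each of 30 and 100 µM. Their summed share averaged 0.00108% at 3 µM AsIII and 0.000138% at 100 µM, against 0.000573% in AsIII controls. The 2 biliary markers averaged 0.0000548% at 3 µM AsIII and 0.000259% at 100 µM, against 0.000130% in AsIII controls, and 1 of them fell at 3 µM and 1 rose at 100 µM. The 4 endothelial markers averaged 0.000158% at 3 µM and 0.000209% at 100 µM, against 0.000174% in AsIII controls. The part of these shifts in the results was not tested. In such bulk libraries, fewer cells of a type and less RNA per cell cannot be told apart.

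Of the AsIII libraries, fish 1 at 100 µM and fish 5 at 30 µM had the most genes at 0 (1694 and 1396). Without both, 80 rose and 44 fell at 3 µM, 56 rose and 47 fell at 10 µM, 34 rose and 48 fell at 30 µM and 35 rose and 57 fell at 100 µM. The other AsIII libraries had 62 to 342 genes at 0, and the AsB libraries had 483 to 2896. The part of this in the comparisons with AsB was not tested. In the plot of changes by role, ATG8 genes sat mostly above 0 at the AsIII doses and BLOC-1 subunits mostly below it. The medians of V-ATPase and cathepsin genes moved downward from 3 to 100 µM. The other core, membrane and hydrolase genes were called in both directions at most AsIII doses.

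**Figure D1:**
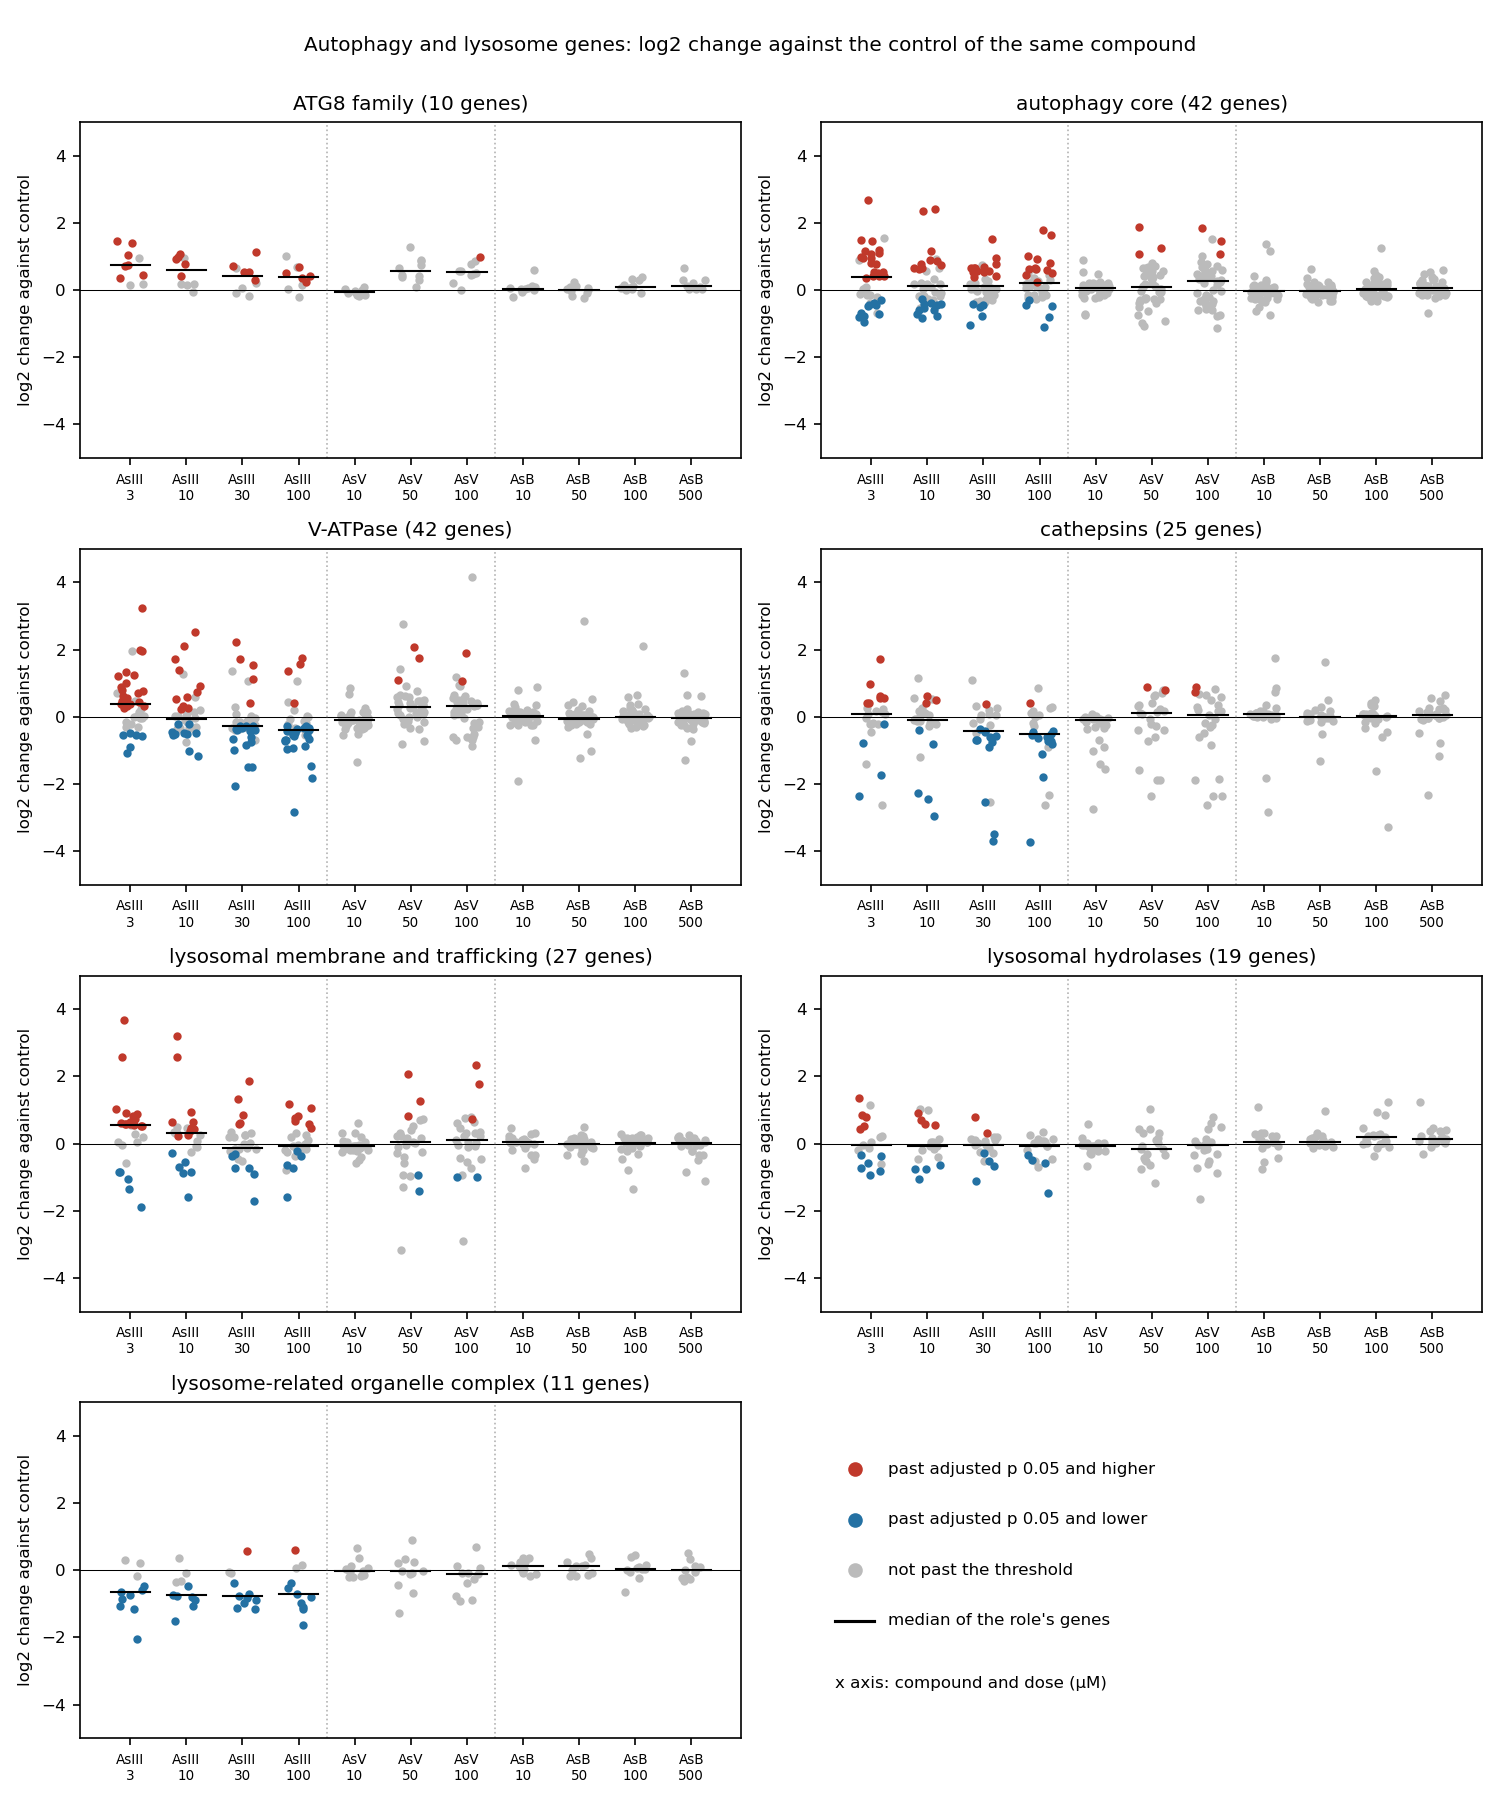
Log2 change against the control of the same compound (y axis) for every gene of 7 roles, by compound and dose in µM (x axis). Points are genes, red and blue mark those past an adjusted p of 0.05, and black lines are medians. At 100 µM AsIII the medians were 0.38 for the ATG8 family, -0.39 for the V-ATPase, -0.51 for the cathepsins and -0.70 for BLOC-1, and no point of the AsB columns is coloured.

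Genes of the ATG8 family, the ubiquitin-like proteins that coat the growing autophagosome and bind its cargo receptors, rose more often than all genes at every AsIII dose with the deposited scaling, and 0 of its 10 genes fell at any dose (1 fell at 10 µM with library-size scaling). Of the 10, 7 rose at 3 µM and 5 at each of 10, 30 and 100 µM, with median changes of 0.74, 0.59, 0.41 and 0.38. In shares, 70%, 50%, 50% and 50% of them rose (all genes, 29.5%, 26.8%, 23.9% and 22.6%). With library-size scaling, 4 rose and 0 fell at 3 µM, 3 rose and 1 fell at 10 µM, and 3 rose and 0 fell at 30 and at 100 µM. The GABARAP-like 2 gene LOC106587940, named for a protein that acts late in autophagosome maturation, had 1587 to 2308 (median 1759.7) normalized counts at 3 µM AsIII, against 529.7 to 853 (median 685) in AsIII controls. The groups did not overlap, and the gene was higher in 6 of 6 fish, with a log2 change of 1.46 ± 0.12 (adjusted p = 6.43e-12). Its median was 1257, 998 and 911 at 10, 30 and 100 µM, and the groups overlapped the controls at 30 and 100 µM. The step from 3 to 10 µM was a fall of its own (log2 change -0.53 ± 0.12, adjusted p = 0.0013). The second GABARAP-like 2 gene, LOC106594419, rose by 1.399 ± 0.118, 0.99 ± 0.12, 0.70 ± 0.12 and 0.69 ± 0.12 at the 4 doses, above every control library each time.

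Among LC3 genes, map1lc3a (LC3A) had 373 to 716 (median 548) normalized counts at 3 µM AsIII, against 213 to 316 (median 263) in AsIII controls. No library at 3 µM overlapped the controls, and the log2 change was 1.05 ± 0.14 (adjusted p = 1.19e-07, higher in 6 of 6 fish). At 10 µM it stood at 493 to 620.3 (median 545), again above every control, with a log2 change of 1.08 ± 0.14. By 30 and 100 µM the changes were 0.53 ± 0.14 and 0.35 ± 0.14, and both groups overlapped the controls. LC3B was split between 2 genes. LOC106573632 rose by 0.72 ± 0.14 at 3 µM and 0.41 ± 0.14 at 10 µM and did not pass at 30 µM (-0.16 ± 0.14) or 100 µM (-0.19 ± 0.14), while map1lc3b passed at 30 µM (0.29 ± 0.08) and 100 µM (0.51 ± 0.08). The other 5 genes, all named GABARAP or GABARAP-like, ranged at 3 µM from 0.14 (gbrap, adjusted p = 0.18) to 0.96 (grl1, adjusted p = 0.0758). grl1 at 3 µM AsIII passed with fish as a block (adjusted p = 4.17e-04, against 0.0758 without the block, and 4.17e-04 to 0.181 over the alternatives). map1lc3b at 3 µM AsIII passed with fish as a block (adjusted p = 0.0302, against 0.0538 without the block, and 0.0166 to 0.503 over the alternatives). With library-size scaling the map1lc3b change at 3 µM was -0.07 in place of 0.19, a change of sign. The LOC106587940 call at 100 µM AsIII was lost without fish 6, with adjusted p from 1.14e-04 to 0.0618 over the alternatives. The map1lc3a call at 100 µM AsIII was lost without fish 2, 3, 4, 5 or 6, with library-size scaling and in edgeR, with adjusted p from 0.00771 to 0.144 over the alternatives. The LOC106573632 call at 10 µM AsIII was lost without fish 4 and with library-size scaling, with adjusted p from 2.67e-04 to 0.511 over the alternatives. The map1lc3b call at 30 µM AsIII was lost with library-size scaling, with adjusted p from 0.00201 to 0.127 over the alternatives.

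The 42 other core autophagy genes, which nucleate, extend and close the autophagosome, moved in both directions. At 3 µM AsIII 20 rose and 10 fell, at 10 µM 10 rose and 11 fell, at 30 µM 14 rose and 5 fell and at 100 µM 12 rose and 5 fell. From 3 to 100 µM 47.6%, 23.8%, 33.3% and 28.6% of them rose (all genes, 29.5%, 26.8%, 23.9% and 22.6%) and 23.8%, 26.2%, 11.9% and 11.9% fell (all genes, 25%, 20.5%, 17.7% and 17.3%), and at 3 µM the share that fell and at 10 µM both shares were near those over all genes. With library-size scaling these became 12 rose and 15 fell at 3 µM, 9 rose and 17 fell at 10 µM, 10 rose and 7 fell at 30 µM and 9 rose and 6 fell at 100 µM. Several genes rose at the low doses and were near control at the high ones, and others did the reverse.

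Of the beclin 1 complex, the lipid kinase complex that starts the autophagosome membrane, becn1 itself had 1151 to 1574 (median 1309.5) normalized counts at 3 µM AsIII, against 822 to 1182 (median 966) in AsIII controls. The groups overlapped, and becn1 rose by 0.45 ± 0.10 at that dose (adjusted p = 4.50e-04, higher in 6 of 6 fish) and stood, without passing, at 0.22 ± 0.10, -0.05 ± 0.10 and -0.17 ± 0.10 at 10, 30 and 100 µM. A second gene, the beclin-1-like LOC106579349, rose by 0.96 ± 0.24 at 3 µM and stood at 0.04 ± 0.24 at 10 µM. LOC106611244, named beclin 1-associated autophagy-related key regulator-like for the subunit that directs the complex to autophagy, had 371 to 557 (median 457) at 3 µM AsIII, against 216 to 304 (median 249) in AsIII controls. All 6 libraries at 3 µM lay above all 6 controls, and its log2 change was 0.81 ± 0.15 (adjusted p = 2.32e-05). At 10 µM it stood at 170.98 to 246 (median 188), overlapping the controls on their low side, and it fell by 0.41 against them (SE 0.15, adjusted p = 0.0218). The step from 3 to 10 µM was -1.22 ± 0.15 (adjusted p = 1.05e-07), with no overlap between the doses. Several genes were like AMBRA1 in name, an activator of beclin 1. Of these, LOC106573031 was chosen by the size of its dose step, and it ran the other way. It had 206 to 363 (median 281) at 3 µM AsIII and 611 to 994 (median 724) at 100 µM, against 379 to 578 (median 479) in AsIII controls. The 3 µM libraries all lay below the controls and the 100 µM libraries all above them, with log2 changes of -0.77 ± 0.15 (adjusted p = 5.57e-05) and 0.64 ± 0.15 (adjusted p = 0.00103). The becn1 call at 3 µM AsIII was lost with library-size scaling, with adjusted p from 7.77e-06 to 0.1 over the alternatives. The LOC106611244 call at 10 µM AsIII was lost without fish 1, 2 or 4, with adjusted p from 2.10e-04 to 0.0926 over the alternatives. The LOC106611244 call at 100 µM AsIII was lost without fish 6, with adjusted p from 0.00252 to 0.0522 over the alternatives. The LOC106573031 call at 10 µM AsIII was lost without fish 2 or 5, with adjusted p from 1.43e-04 to 0.0982 over the alternatives. becn1 at 10 µM AsIII passed with fish as a block (adjusted p = 0.0186, against 0.0838 without the block, and 0.0186 to 0.49 over the alternatives). LOC106611244 at 30 µM AsIII passed with fish as a block (adjusted p = 0.0301, against 0.0634 without the block, and 0.0138 to 0.159 over the alternatives).

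Among genes named for the linking of ATG8 to lipid, LOC106613341, ATG16-2-like by name, showed the steepest rise of the core genes at 3 µM. It had 455 to 759 (median 567) normalized counts at 3 µM AsIII and 357 to 547 (median 449) at 10 µM, against 58.3 to 108 (median 88.4) in AsIII controls. Neither dose overlapped the controls, and the log2 changes were 2.69 ± 0.20 (adjusted p = 3.46e-13) and 2.36 ± 0.20 (adjusted p = 1.41e-11), with the gene higher in 6 of 6 fish at both. From 10 to 30 µM it fell by 1.68 (SE 0.20, adjusted p = 9.74e-08), to a median of 144. The gene atg16l1, ATG16-1 by name, held more counts, with a mean of 728 at 10 µM AsV, against 81.0 for LOC106613341. The AsIII changes of atg16l1 are not given here. An ATG5-like gene, LOC106581183, fell by 0.84 at 10 µM (SE 0.19) and stepped up by 1.03 ± 0.19 from 10 to 30 µM. The gene atg5 itself held more counts, with a mean of 210 at 10 µM AsV, against 118 for LOC106581183. In the AsIII response minus the AsB response at 10 µM, atg5 was the lowest core gene, with a difference of -0.95. Its AsIII changes against control are not given here. The E1-like enzyme gene atg7 and the E2-like enzyme gene atg3, both needed for this link and picked here after their values were seen, fell at 30 µM (-1.05 ± 0.10 and -0.77 ± 0.14) and 100 µM (-1.09 ± 0.10 and -0.80 ± 0.14). The lipid transfer gene atg2b, whose protein feeds the growing membrane, stood above the controls at all 4 doses. It had 948 to 1280.2 (median 1040.0) at 100 µM AsIII, against 209 to 485 (median 342) in AsIII controls, and its log2 changes were 1.50 ± 0.15, 1.15 ± 0.15, 1.52 ± 0.15 and 1.63 ± 0.15 from 3 to 100 µM (adjusted p = 2.44e-10 at 100 µM). LOC106575328, ATG9A-like by name, rose by 1.07 ± 0.23 at 3 µM and 1.02 ± 0.23 at 100 µM and stood at 0.18 ± 0.23 at 10 µM without passing. The LOC106613341 call at 30 µM AsIII was lost without fish 3, with adjusted p from 4.30e-04 to 0.0557 over the alternatives.

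**Figure D2:**
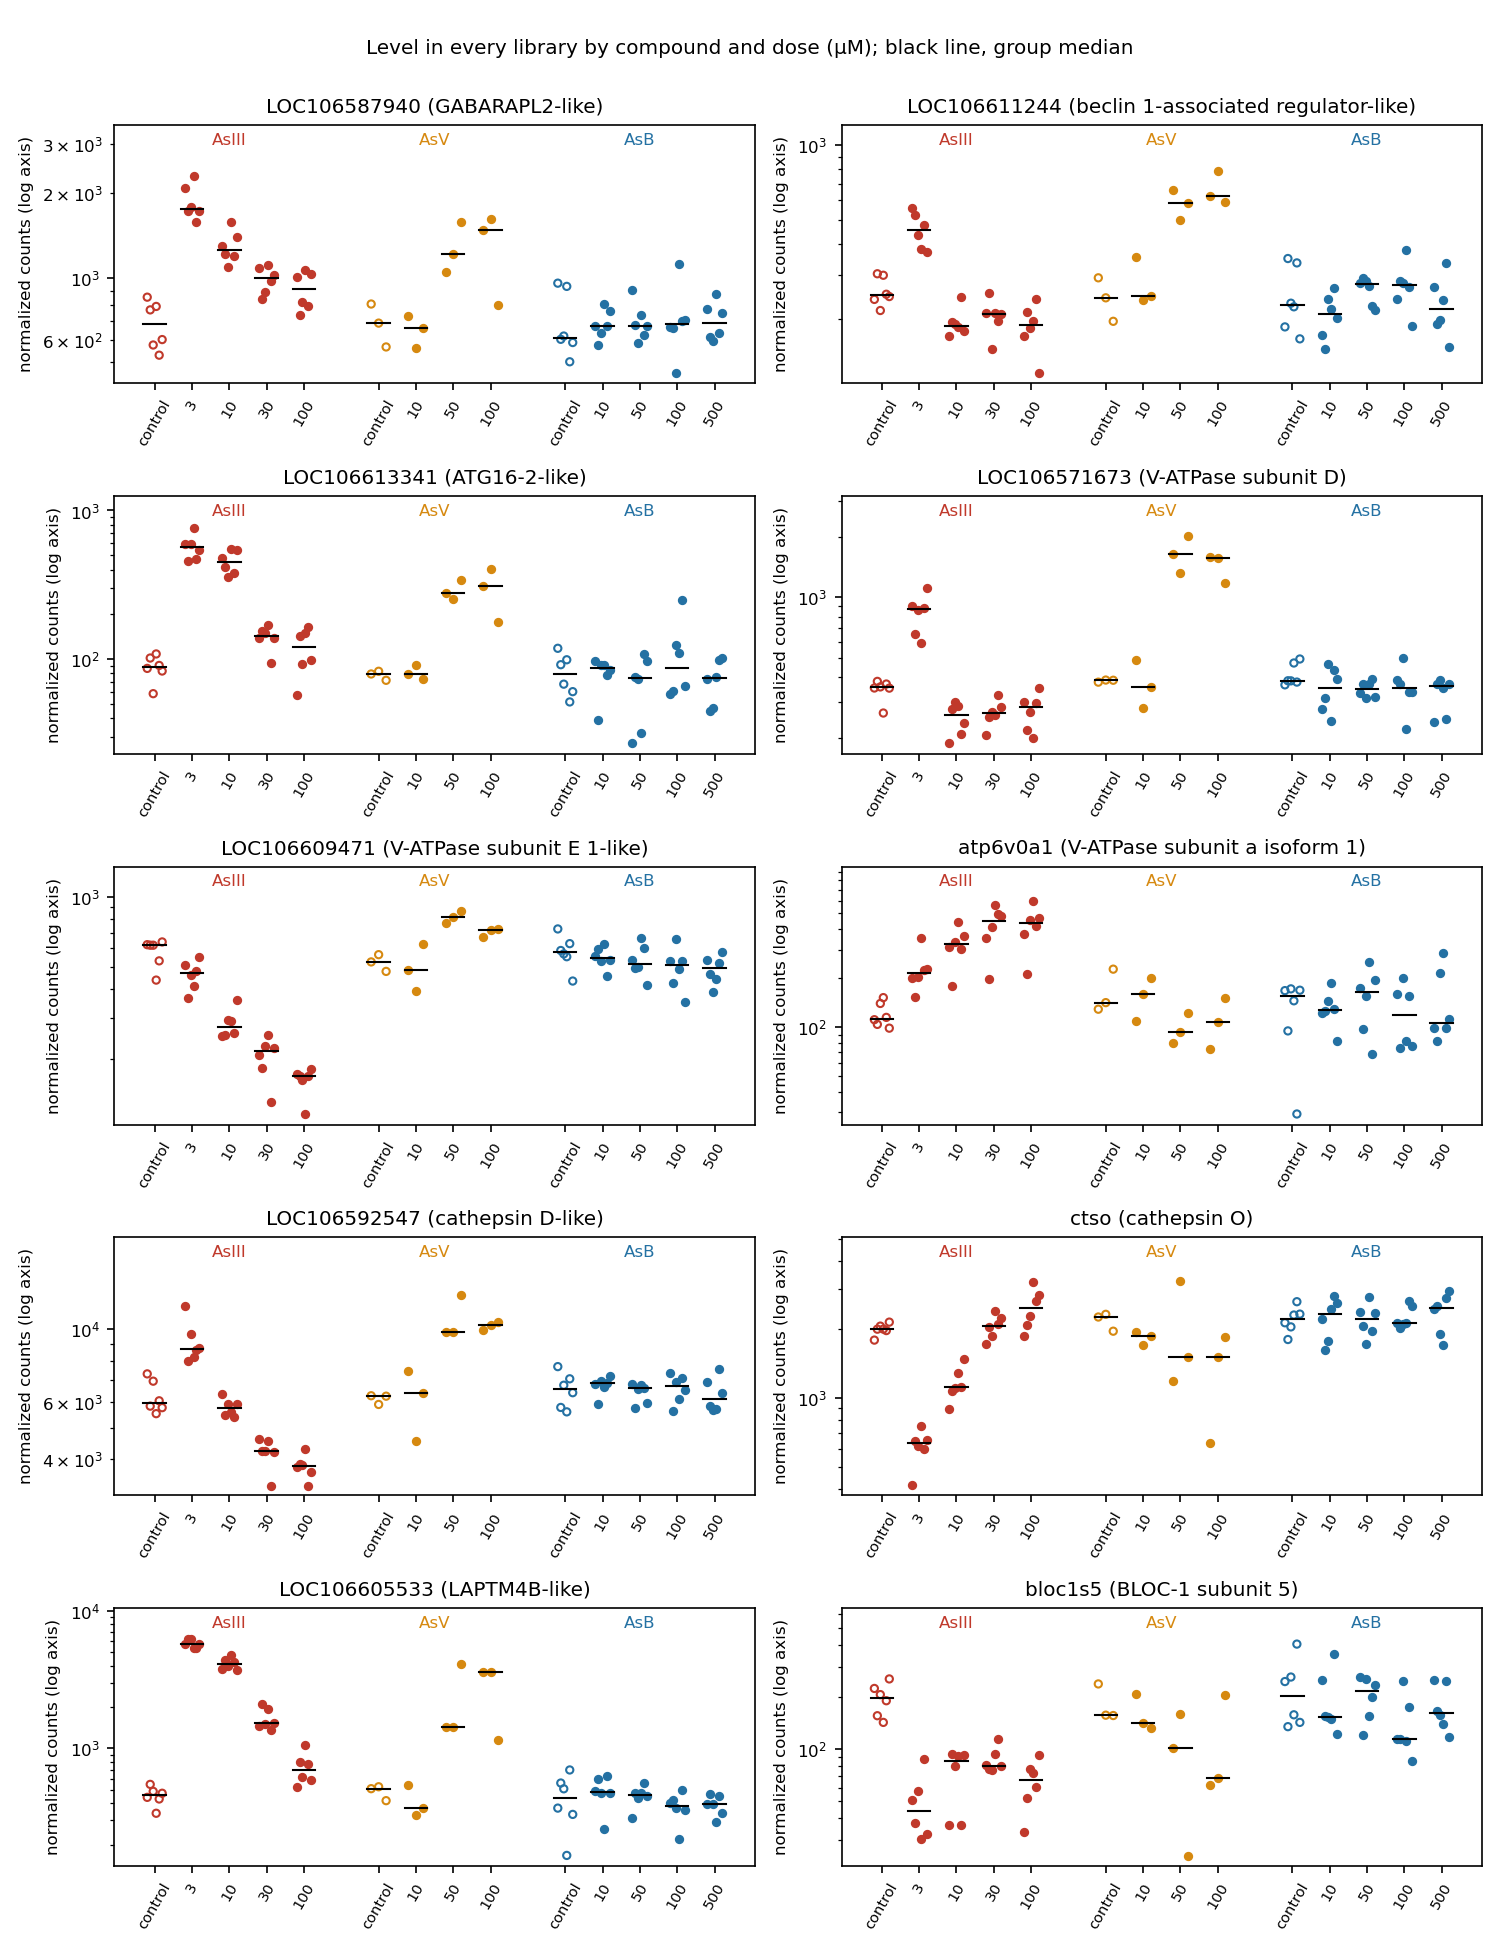
Normalized counts (y axis, log scale) in every library for 10 genes, by compound and dose in µM (x axis). Open points are controls, filled points exposed cultures, and black lines group medians. The LOC106613341 median was 88.4 in AsIII controls and 567, 449, 144 and 121 at 3, 10, 30 and 100 µM AsIII, while ctso moved the other way, with medians of 2006 in controls and 633, 1115, 2079.5 and 2478.

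The V-ATPase, the rotary pump that acidifies lysosomes and endosomes, fell more often than it rose at 30 and 100 µM AsIII; at 3 µM rises outnumbered falls with the deposited scaling, while the 2 were equal with library-size scaling. Of its 42 genes, 21 rose and 6 fell at 3 µM, 11 rose and 10 fell at 10 µM, 5 rose and 16 fell at 30 µM and 4 rose and 23 fell at 100 µM, with medians of 0.37, -0.07, -0.29 and -0.39. By share, 50%, 26.2%, 11.9% and 9.52% of them rose (all genes, 29.5%, 26.8%, 23.9% and 22.6%) and 14.3%, 23.8%, 38.1% and 54.8% fell (all genes, 25%, 20.5%, 17.7% and 17.3%). With library-size scaling, 13 rose and 13 fell, 5 rose and 23 fell, 4 rose and 27 fell and 3 rose and 26 fell at those doses. Between neighbouring doses, 0 of the 42 rose and 19 fell from 3 to 10 µM (all genes, 14.6% and 15.7%). From 10 to 30 µM 0 rose and 13 fell (all genes, 9.98% and 11.4%), and 1 rose and 6 fell with library-size scaling. As a share of all counts, the 42 genes together averaged 0.0841% ± 0.00392 in AsIII controls and 0.0940% ± 0.00379, 0.0705% ± 0.00248, 0.0638% ± 0.00168 and 0.0630% ± 0.00250 at 3, 10, 30 and 100 µM (SD, n = 6 each). Every library at 3 µM lay above every control, and every library at 10, 30 and 100 µM lay below.

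**Figure D3:**
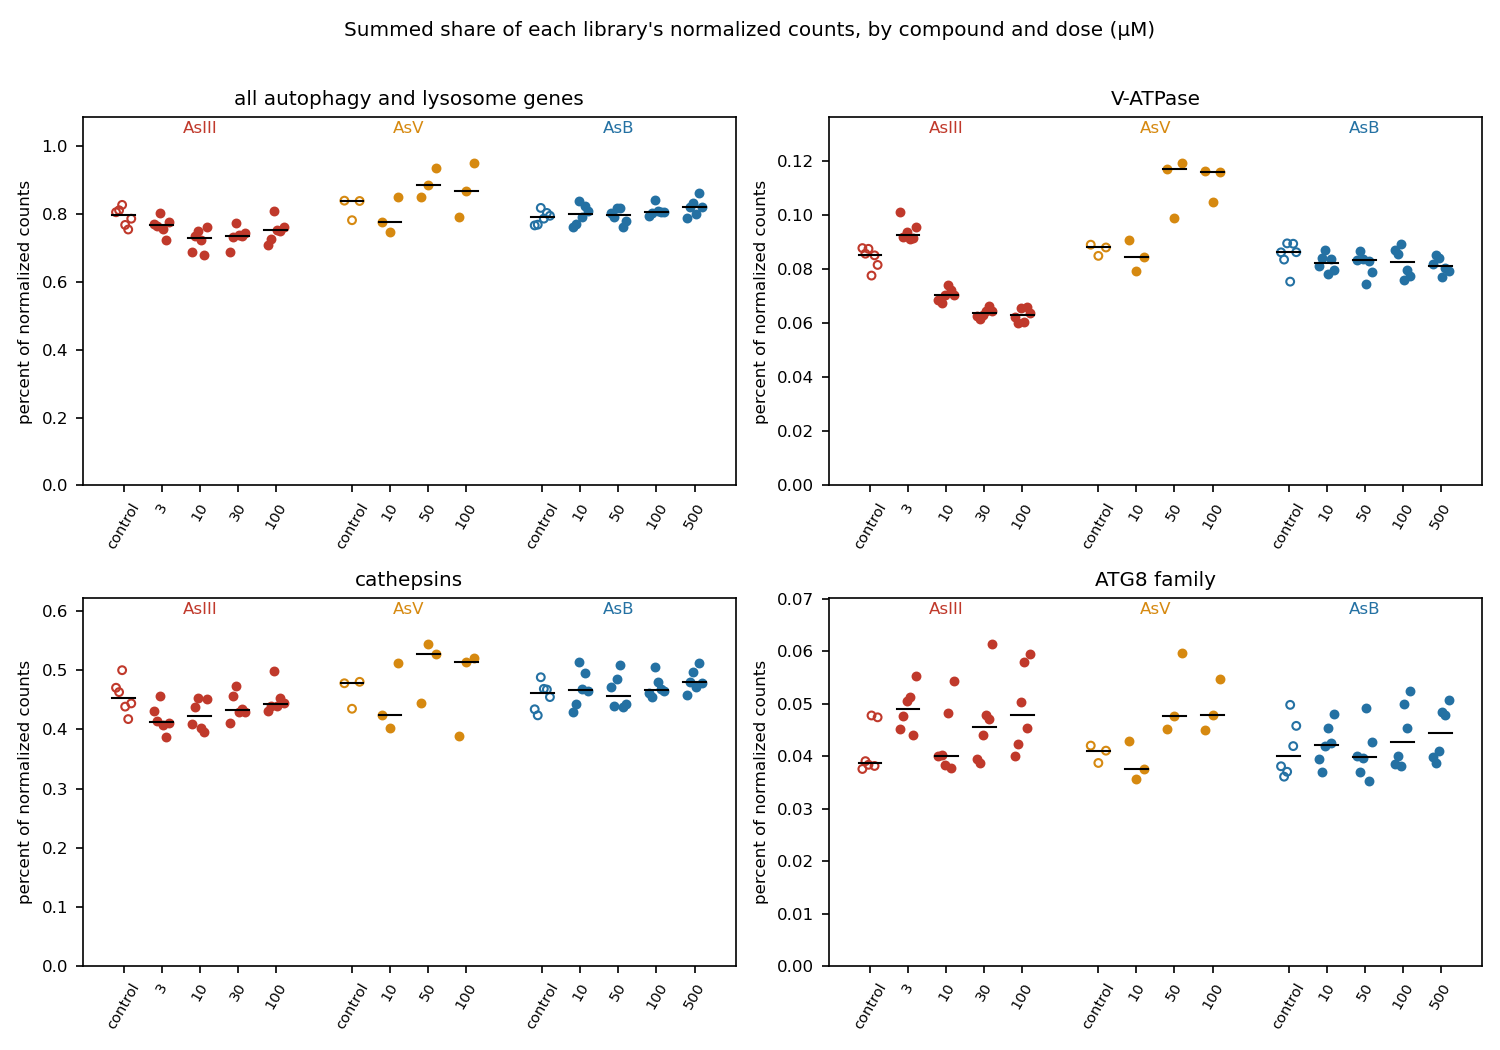
Summed share of each library's normalized counts in percent (y axis, from 0) for all the autophagy and lysosome genes and for 3 roles, by compound and dose in µM (x axis). Open points are controls, filled points exposed cultures, and black lines medians. V-ATPase medians were 0.0853% in AsIII controls and 0.0927%, 0.0704%, 0.0637% and 0.0630% at 3, 10, 30 and 100 µM AsIII, while all the genes together stayed between 0.679% and 0.948% in all 72 libraries.

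In the soluble, ATP-splitting sector, LOC106571673, a gene for subunit D of the central stalk, had 594 to 1108 (median 876) normalized counts at 3 µM AsIII, against 266 to 382 (median 356) in AsIII controls. The groups did not overlap, and the log2 change was 1.24 ± 0.16 (adjusted p = 3.19e-08, higher in 6 of 6 fish). At 10 µM it had 188 to 301 (median 259), partly below the controls, and the step from 3 to 10 µM was -1.72 ± 0.16 (adjusted p = 3.46e-10). A subunit D-like gene, LOC106608215, held more counts, with a mean of 1698 at 10 µM AsV, against 376 for LOC106571673. Changes of LOC106608215 are shown only in the map of V-ATPase genes further on. Subunit F, LOC106609141, which sits on the same stalk, had 1774 to 1999 (median 1860.1) at 3 µM AsIII, against 309 to 629 (median 481) in AsIII controls. Its libraries at 3 µM lay above all controls, with a log2 change of 2.00 ± 0.13 (adjusted p = 1.30e-14), and its changes were 0.73 ± 0.13, -0.33 ± 0.13 and -0.53 ± 0.13 at 10, 30 and 100 µM. Subunit G 1-like, LOC106563029, part of the outer stalk, followed the same course with 1.34 ± 0.16, 0.91 ± 0.16, -0.40 ± 0.16 and -0.65 ± 0.16 from 3 to 100 µM. All 3 genes named catalytic subunit A, picked here after their values were seen, fell at 30 and 100 µM, with changes of -0.88 ± 0.10 (LOC106563593), -2.84 ± 0.65 (LOC106590474) and -0.96 ± 0.10 (LOC106603053) at 100 µM. The LOC106571673 call at 10 µM AsIII was lost without fish 1 or 5, with adjusted p from 2.00e-04 to 0.0583 over the alternatives. The LOC106609141 call at 30 µM AsIII was lost without fish 2, 3, 4, 5 or 6, with adjusted p from 0.00752 to 0.24 over the alternatives. The LOC106563029 call at 30 µM AsIII was lost without fish 1, 2, 3 or 5 and without the 2 AsIII libraries with the most genes at 0, with adjusted p from 0.00331 to 0.149 over the alternatives. LOC106571673 at 100 µM AsIII passed with fish as a block (adjusted p = 0.0303, against 0.0612 without the block, and 0.0275 to 0.226 over the alternatives).

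The outer-stalk subunit E 1-like gene LOC106609471 fell at 10, 30 and 100 µM AsIII. Its median was lower at each higher dose, although the step from 30 to 100 µM did not pass. It had 116 to 181 (median 169.8) normalized counts at 100 µM AsIII, against 438 to 639 (median 618) in AsIII controls. Its medians were 469.9, 276 and 216 at 3, 10 and 30 µM. From 10 µM upward every exposed library was below every control, with log2 changes of -1.01 ± 0.14, -1.51 ± 0.14 and -1.83 ± 0.14 (adjusted p = 1.18e-11 at 100 µM). LOC106609471 at 3 µM AsIII passed with fish as a block (adjusted p = 0.0354, against 0.0638 without the block, and 0.0012 to 0.252 over the alternatives). A second E 1-like gene, LOC106576269, fell at all 4 doses, by 0.90 at 3 µM and 1.45 at 100 µM (SE 0.36 each), although its libraries overlapped the controls. A further E 1-like gene, LOC106561370, held more counts, with a mean of 1688 at 10 µM AsV. LOC106609471 and LOC106576269 had means of 501 and 77.7 there. The falls given thus cover the less abundant E 1-like genes. Changes of LOC106561370 are shown only in the map of V-ATPase genes, and subunit E transcripts were not summed. Some genes of the membrane-embedded sector were among those that rose. In that sector atp6v0a1, a gene for subunit a isoform 1, part of the proton path, had 211 to 596 (median 436) at 100 µM AsIII, against 98.7 to 152.1 (median 113) in AsIII controls. All exposed libraries lay above the controls at each of the 4 doses, with log2 changes of 0.88 ± 0.23, 1.38 ± 0.23, 1.73 ± 0.23 and 1.75 ± 0.23 (adjusted p = 4.44e-07 at 100 µM). The small subunit e 1-like gene LOC106603876 also rose at all 4 doses, by 1.21 ± 0.24, 1.73 ± 0.24, 1.55 ± 0.24 and 1.57 ± 0.24. The map of V-ATPase genes shows these rows against the largely blue columns of 30 and 100 µM.

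**Figure D4:**
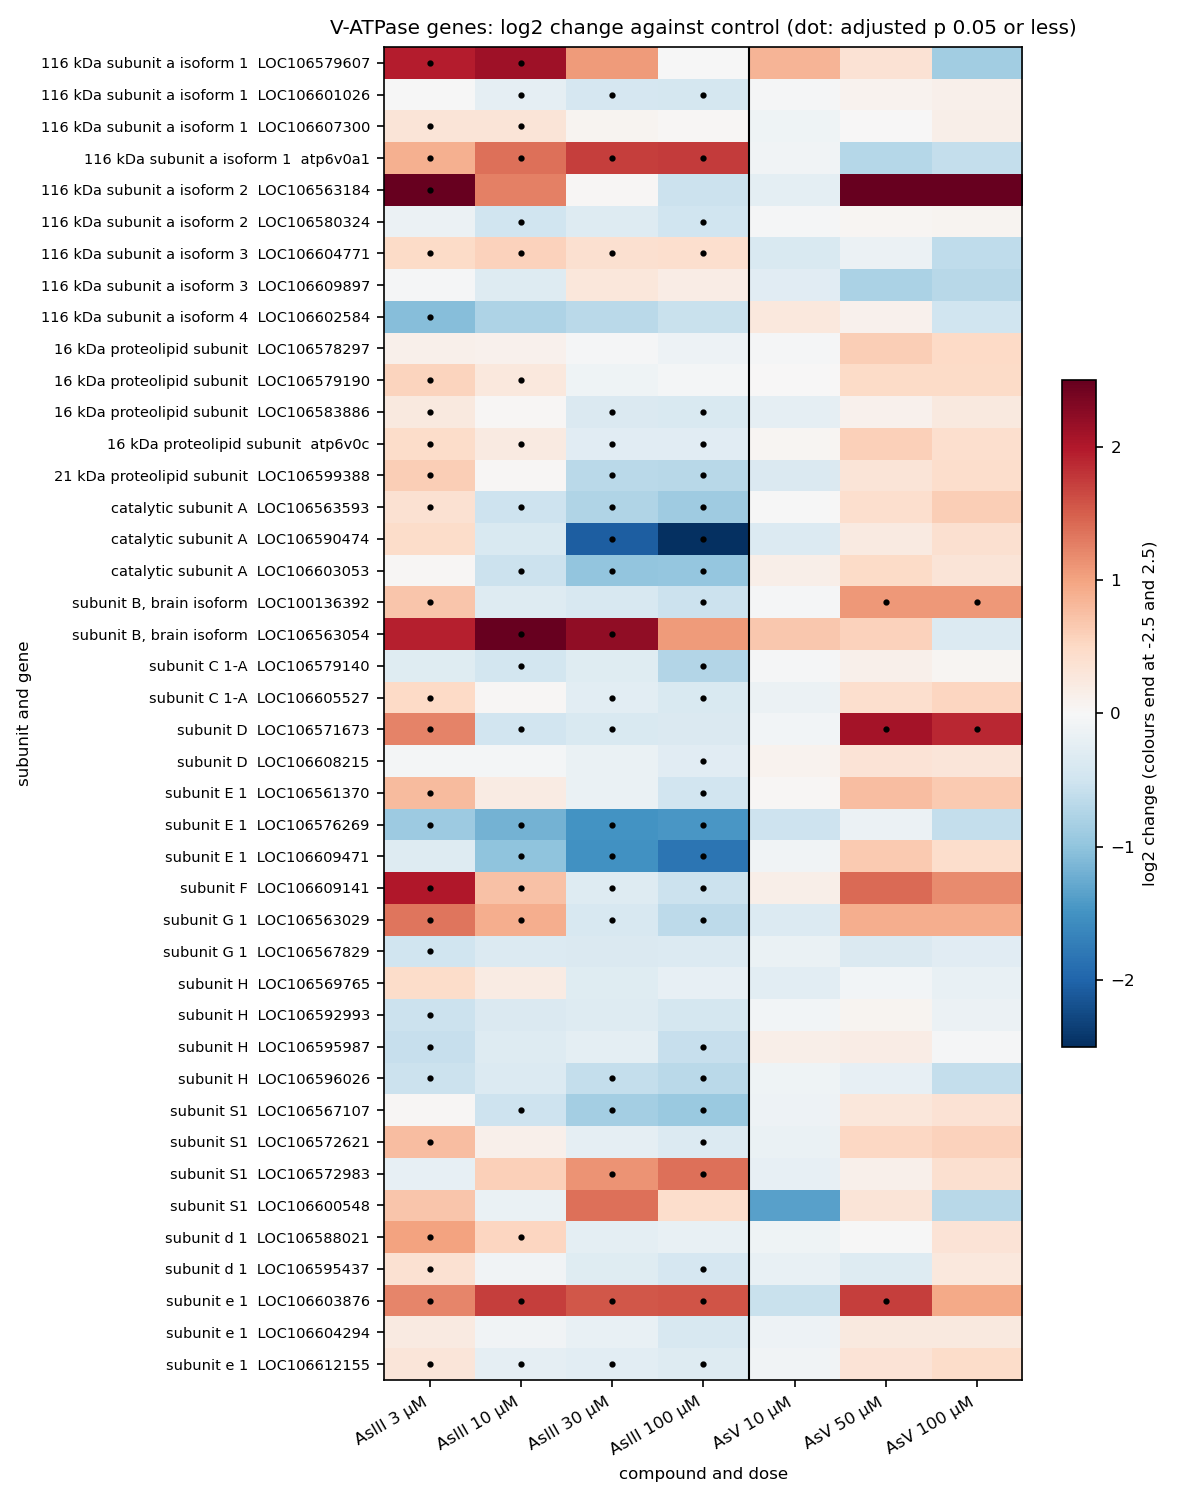
Log2 change against control (colour, ending at 2.5 either way) for the 42 V-ATPase genes, grouped by subunit (y axis), at each AsIII and AsV dose (x axis); dots mark an adjusted p of 0.05 or less. At 100 µM AsIII 4 genes carry a red dot and 23 a blue one, and at 100 µM AsV 2 carry a red dot and 0 a blue one.

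Of the cathepsins, the main proteases of the lysosome, more fell than rose at 30 and 100 µM AsIII, while catm, which held the most counts, rose. Of 25 genes, 7 rose and 4 fell at 3 µM, 3 rose and 5 fell at 10 µM, 1 rose and 12 fell at 30 µM and 1 rose and 12 fell at 100 µM, with medians of 0.09, -0.10, -0.41 and -0.51. By share, 28%, 12%, 4% and 4% of them rose (all genes, 29.5%, 26.8%, 23.9% and 22.6%) and 16%, 20%, 48% and 48% fell (all genes, 25%, 20.5%, 17.7% and 17.3%). With library-size scaling, 5 rose and 10 fell, 1 rose and 12 fell, 1 rose and 14 fell and 1 rose and 13 fell at those doses. The summed share of counts on cathepsin genes averaged 0.456% ± 0.0287 in AsIII controls and 0.418% ± 0.0238, 0.425% ± 0.0259, 0.439% ± 0.0225 and 0.451% ± 0.0240 at 3, 10, 30 and 100 µM (SD, n = 6 each). It was lowest at 3 µM, and the libraries of every dose overlapped the controls. The cathepsin M gene catm held 46.3% to 74.9% of the cathepsin counts of a library, and it is the gene that rose at 30 µM (0.39 ± 0.06) and 100 µM (0.40 ± 0.06); it was picked after its values were seen.

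For cathepsin D, the aspartic protease, the gene LOC106592547 had 7979 to 11778 (median 8709) normalized counts at 3 µM AsIII and 3324 to 4301 (median 3808) at 100 µM, against 5512 to 7293 (median 5923) in AsIII controls. All libraries at 3 µM lay above the controls and all at 100 µM lay below them. Its log2 changes were 0.56 ± 0.09 at 3 µM (adjusted p = 6.97e-06), -0.10 ± 0.09 at 10 µM (adjusted p = 0.375), -0.57 ± 0.09 at 30 µM and -0.71 ± 0.09 at 100 µM (adjusted p = 3.41e-07). The cathepsin D-like genes LOC106562496 and LOC106587969 followed it, with 0.41 ± 0.13 and 0.57 ± 0.11 at 3 µM and -1.11 ± 0.13 and -0.72 ± 0.11 at 100 µM. The other 2 cathepsin D-like genes did not: LOC106607447 rose at 10 µM (0.50 ± 0.16), and LOC106596118, which varied widely, fell at 10 µM (-2.95 ± 1.17) and did not pass at the other doses. The cathepsin E-like gene LOC106576650, another aspartic protease, fell at 3, 10 and 30 µM with the same wide error (-2.37 ± 0.95 at 3 µM). catb, the cysteine protease cathepsin B, had 14165 to 22674 (median 17172) at 3 µM AsIII and 6203 to 9099 (median 7315) at 100 µM, against 10128 to 13877 (median 11284) in AsIII controls. Again the 3 µM libraries were all above the controls and the 100 µM libraries all below, with changes of 0.62 ± 0.13 (adjusted p = 1.71e-04) and -0.61 ± 0.13 (adjusted p = 3.69e-04). The cathepsin B-like gene LOC106611360 fell at 30 µM (-0.47 ± 0.08) and 100 µM (-0.51 ± 0.08). catl1, cathepsin L, fell by 0.39, 0.70 and 0.64 at 10, 30 and 100 µM (SE 0.10 each), while the 3 cathepsin L1-like genes passed at no dose. The LOC106562496 call at 3 µM AsIII was lost with library-size scaling, with adjusted p from 0.00162 to 0.329 over the alternatives. The LOC106607447 call at 10 µM AsIII was lost with library-size scaling, with adjusted p from 2.80e-08 to 0.255 over the alternatives. The LOC106596118 call at 10 µM AsIII was lost without fish 2, 4, 5 or 6, with adjusted p from 1.13e-08 to 0.101 over the alternatives. The LOC106576650 call at 3 µM AsIII was lost without fish 2, 4, 5 or 6, with adjusted p from 3.98e-11 to 0.116 over the alternatives. LOC106596118 at 100 µM AsIII passed with fish as a block (adjusted p = 1.23e-07, against 0.0742 without the block, and 1.23e-07 to 0.187 over the alternatives). catl1 at 3 µM AsIII passed with fish as a block (adjusted p = 0.00253, against 0.0746 without the block, and 9.99e-06 to 0.165 over the alternatives).

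ctso, the cysteine protease cathepsin O, took the opposite course to catb. It had 414 to 751 (median 633) normalized counts at 3 µM AsIII and 897 to 1482 (median 1115) at 10 µM, against 1796 to 2154 (median 2006) in AsIII controls. Both doses lay wholly below the controls, with changes of -1.72 ± 0.13 (adjusted p = 4.09e-13) and -0.80 ± 0.13 (adjusted p = 6.08e-06), in 6 of 6 fish each. It stepped up from 3 to 10 µM (0.92 ± 0.13, adjusted p = 1.39e-06) and from 10 to 30 µM (0.84 ± 0.13, adjusted p = 9.05e-06), to a median of 2079.5. At 30 and 100 µM its changes against control were 0.04 ± 0.13 and 0.29 ± 0.13. A cathepsin H-like gene, LOC106562440, named for an aminopeptidase, fell at 3 µM (-0.78 ± 0.19) and stepped up by 0.83 ± 0.19 from 3 to 10 µM. The cathepsin K-like gene LOC106580864 rose at 3 µM (1.72 ± 0.46) although its libraries overlapped the controls. ctso at 100 µM AsIII passed with fish as a block (adjusted p = 0.00206, against 0.0694 without the block, and 0.00206 to 0.218 over the alternatives).

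Among the 27 lysosomal membrane and trafficking genes, 15 rose and 5 fell at 3 µM AsIII, 10 rose and 6 fell at 10 µM, 5 rose and 6 fell at 30 µM and 7 rose and 5 fell at 100 µM. Across the doses 55.6%, 37%, 18.5% and 25.9% of them rose (all genes, 29.5%, 26.8%, 23.9% and 22.6%) and 18.5%, 22.2%, 22.2% and 18.5% fell (all genes, 25%, 20.5%, 17.7% and 17.3%). With library-size scaling, 11 rose and 8 fell, 3 rose and 9 fell, 4 rose and 10 fell and 6 rose and 9 fell at those doses. The steepest rise of the named genes was that of LOC106605533, similar in name to LAPTM4B, a lysosomal membrane protein that in mammals takes part in amino acid signalling to mTORC1. LOC106605533 had 5324 to 6223 (median 5725) normalized counts at 3 µM AsIII, against 337 to 547 (median 456) in AsIII controls. Its medians were 4075, 1517 and 696 at 10, 30 and 100 µM, and only the 100 µM group overlapped the controls. The changes were 3.68 ± 0.13, 3.20 ± 0.13, 1.86 ± 0.13 and 0.66 ± 0.13 (adjusted p = 1.72e-21 at 3 µM and 1.59e-04 at 100 µM). Each step up in dose was a fall, of 0.48, 1.34 and 1.20 (adjusted p = 0.00546, 2.01e-09 and 8.64e-08). The other LAPTM4B-like gene, LOC106579220, rose by 2.58 ± 0.13, 2.57 ± 0.13 and 1.31 ± 0.13 at 3, 10 and 30 µM and stood at 0.19 ± 0.13 at 100 µM.

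Genes for the LAMP glycoproteins, which protect the inner face of the lysosomal membrane, rose at 3 µM in 5 of 8 cases (all genes, 29.5%). These 8 include the LAMP3-like genes, which were picked after their values were seen. The LAMP1-like gene LOC106581974 had 2309.5 to 3092 (median 2750.2) normalized counts at 3 µM AsIII and 743 to 948 (median 864) at 100 µM, against 1275 to 1551 (median 1439.8) in AsIII controls. Its 3 µM libraries lay above and its 100 µM libraries below all controls, with changes of 0.91 ± 0.12 (adjusted p = 1.14e-07) and -0.74 ± 0.12 (adjusted p = 1.14e-05). lamp1 rose by 0.56 ± 0.08 at 3 µM and the LAMP2-like gene LOC106604436 by 0.59 ± 0.08 and the LAMP1-like gene LOC106592791 by 0.52 ± 0.11, whereas lamp2 stood at 0.05 ± 0.08 at 3 µM and fell at 10 µM (-0.29 ± 0.08) and 30 µM (-0.36 ± 0.08). Another LAMP1-like gene, LOC106586760, lay below every control at all 4 doses, with changes of -1.36 ± 0.20, -1.60 ± 0.20, -1.70 ± 0.20 and -1.60 ± 0.20. The LAMP3-like genes, picked after their values were seen, overlapped the controls: LOC106584302 rose at 3 µM (0.82 ± 0.26), and LOC106613936 rose at 10 µM (0.43 ± 0.15) and 100 µM (0.46 ± 0.15). The LOC106584302 call at 3 µM AsIII was lost with library-size scaling, with adjusted p from 5.36e-04 to 0.0569 over the alternatives. The LOC106613936 call at 10 µM AsIII was lost without fish 2 and with library-size scaling, with adjusted p from 1.12e-04 to 0.429 over the alternatives. scarb2 encodes lysosome membrane protein 2, which in mammals carries glucocerebrosidase to the lysosome. It had 978 to 1250.4 (median 1132) at 3 µM AsIII and 1108 to 1808 (median 1528) at 100 µM, against 2149 to 2690.2 (median 2259.9) in AsIII controls. No library at any of the 4 doses reached the controls, and the changes ran from -1.06 ± 0.11 at 3 µM (adjusted p = 1.73e-09) to -0.64 ± 0.11 at 100 µM (adjusted p = 3.34e-05). Of 5 further genes of that name, LOC106580040 fell at 3 µM (-0.83 ± 0.15) and 10 µM (-0.54 ± 0.15), while LOC106568513 rose at all 4 doses, by 0.52 ± 0.17 at 3 µM and 1.07 ± 0.17 at 100 µM. The other 3 were picked after their values were seen. LOC106560709 fell at 3 µM (-0.86 ± 0.12), below every control, and rose at 100 µM (0.58 ± 0.12), above every control. LOC106585381, at a mean of 30.4 normalized counts at 100 µM AsIII and 15.9 in AsIII controls, rose at 100 µM (1.17 ± 0.47, adjusted p = 0.0478) with overlap and in 4 of 6 fish. LOC106585734 passed at no dose and stood at 0.26 ± 0.22 at 100 µM. The LOC106568513 call at 3 µM AsIII was lost with library-size scaling, with adjusted p from 0.00151 to 0.218 over the alternatives. The LOC106585381 call at 100 µM AsIII was lost without fish 1, 2, 3 or 5, with library-size scaling, in edgeR and without the 2 AsIII libraries with the most genes at 0, with adjusted p from 0.0225 to 0.184 over the alternatives.

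Of the 19 other lysosomal hydrolases, 5 rose and 6 fell at 3 µM AsIII, 4 rose and 4 fell at 10 µM, 2 rose and 4 fell at 30 µM and 0 rose and 4 fell at 100 µM. With library-size scaling, 3 rose and 10 fell, 3 rose and 9 fell, 1 rose and 6 fell and 0 rose and 4 fell. From low to high dose 26.3%, 21.1%, 10.5% and 0% of them rose (all genes, 29.5%, 26.8%, 23.9% and 22.6%) and 31.6%, 21.1%, 21.1% and 21.1% fell (all genes, 25%, 20.5%, 17.7% and 17.3%), and at 3 and 10 µM the shares lay near those over all genes. LOC106595381, lysosomal alpha-glucosidase-like for the enzyme that digests glycogen in the lysosome, had 394 to 572 (median 447) normalized counts at 10 µM AsIII, against 627 to 981 (median 672) in AsIII controls. All 4 doses lay below the controls, with changes of -0.59 ± 0.15, -0.64 ± 0.15, -0.52 ± 0.15 and -0.50 ± 0.15 (adjusted p = 5.93e-04 at 10 µM). The alpha-glucosidase-like gene LOC106593024 fell at all 4 doses (-0.93 ± 0.39 at 3 µM, -1.48 ± 0.39 at 100 µM), and 3 further copies, LOC106601771, LOC106564132 and LOC106588841, stood at 0.35 ± 0.19, 0.02 ± 0.16 and 0.09 ± 0.29 at 100 µM without passing, although LOC106601771 fell at 3 µM (-0.83 ± 0.19). LOC106570067, PPT2-A-like for a thioesterase that removes fatty acyl groups, had 397 to 595 (median 469.8) at 10 µM AsIII, against 194 to 328 (median 278) in AsIII controls. It lay above the controls at 3, 10 and 30 µM (0.84 ± 0.14, 0.90 ± 0.14 and 0.79 ± 0.14, adjusted p = 3.74e-06 at 10 µM) and overlapped them at 100 µM (0.26 ± 0.14, adjusted p = 0.142). The LOC106593024 call at 3 µM AsIII was lost without fish 2, 3, 4, 5 or 6, with adjusted p from 0.0012 to 0.186 over the alternatives.

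The BLOC-1 subunits, which sort cargo from endosomes toward organelles related to lysosomes, were mostly lower at every AsIII dose. Of 11 genes, 0 rose and 8 fell at 3 µM, 0 rose and 7 fell at 10 µM, and 1 rose and 8 fell at each of 30 and 100 µM, with medians of -0.65, -0.74, -0.75 and -0.70 from 3 to 100 µM. As shares, 0%, 0%, 9.09% and 9.09% of them rose (all genes, 29.5%, 26.8%, 23.9% and 22.6%) and 72.7%, 63.6%, 72.7% and 72.7% fell (all genes, 25%, 20.5%, 17.7% and 17.3%). With library-size scaling 9 fell at 3 and 10 µM and 8 at 30 and 100 µM. The subunit 5 gene bloc1s5 had 30.4 to 87.9 (median 44.1) normalized counts at 3 µM AsIII and 33.4 to 93.02 (median 66.8) at 100 µM, against 143 to 255 (median 199) in AsIII controls. It lay below every control at all 4 doses, with changes of -2.04 ± 0.28, -1.52 ± 0.28, -1.15 ± 0.28 and -1.62 ± 0.28 (adjusted p = 1.53e-07 at 3 µM). All 3 subunit 6-like genes (LOC106562500, LOC106562462 and LOC106587685) and the subunit 3-like gene LOC106612721 did the same, with -1.09 ± 0.18, -1.16 ± 0.21, -0.97 ± 0.13 and -0.79 ± 0.11 at 100 µM. The gene that rose was the subunit 4-like LOC106570231 (0.59 ± 0.16 at 100 µM), picked after its values were seen. Of the last 2 genes, also given without a rule, the thiol reductase-like LOC106568950 rose at 3 µM (0.58 ± 0.12) and gba2 fell there (-0.83 ± 0.13), and neither passed at 30 or 100 µM.

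Between neighbouring AsIII doses, more of the genes fell than rose. From 3 to 10 µM 12 rose and 49 fell, where 14.6% of all genes rose and 15.7% fell. From 10 to 30 µM 7 rose and 41 fell (all genes, 9.98% and 11.4%), and 15 rose and 22 fell with library-size scaling. From 30 to 100 µM 0 rose and 3 fell (all genes, 0.147% and 1.53%), namely LOC106605533, LOC106579220 and LOC106570067, and with fish as a block 1 rose and 5 fell. As a share of the members tested, the 3 falls lay near that over all genes. Median steps of the members were -0.12, -0.11 and -0.01, against 0.07, -0.05 and 0.00 for all genes. Steps up were ranked by size among called genes with a mean of 50 or more normalized counts. The largest were those of ctso and LOC106562440 from 3 to 10 µM, and LOC106581183, LOC106573031 and ctso from 10 to 30 µM. The LOC106570067 call for the step to 100 µM was lost without fish 1, 3, 5 or 6, with library-size scaling, in edgeR and without the 2 AsIII libraries with the most genes at 0, with adjusted p from 0.00711 to 0.339 over the alternatives.

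At 50 and 100 µM AsV, in cells of 3 fish, few of the genes were called, mostly as rises. At 10 µM AsV 0 rose and 0 fell in limma (all genes, 0% and 0%), and edgeR called 0. There 2 members (1.12%) had an unadjusted p under 0.05 in limma, against 0.456% of all genes. At 50 µM 11 rose and 2 fell (all genes, 4.23% and 2.74%), with a median of 0.13 against -0.07 for all genes. At 100 µM 11 rose and 2 fell (all genes, 4.47% and 2.21%), with a median of 0.16 against -0.06. As shares of the members tested, the rises lay only slightly above those over all genes at both doses, and the falls below them. These counts changed when any of the 3 fish was left out, which also makes the groups smaller. At 50 µM the 13 calls became 1, 3 and 4 without fish 1, 2 and 3, and at 100 µM the 13 became 0, 1 and 20. Hepatocyte markers held 10.5% to 13.3% of counts at 50 µM and 11.2% to 12.4% at 100 µM AsV, against 13.3% to 14.4% in AsV controls, and their part in these results was not tested. By role, 1 ATG8, 3 core, 2 V-ATPase, 2 cathepsin and 3 membrane genes rose at 100 µM, 2 membrane genes (scarb2 and LOC106580040) fell, and no other hydrolase or BLOC-1 gene passed. As a share of all counts the V-ATPase genes averaged 0.112% ± 0.0112 at 50 µM and 0.112% ± 0.00647 at 100 µM, against 0.0872% ± 0.00215 in AsV controls (SD, n = 3 each), with no overlap.

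LOC106571673, a gene for subunit D of the V-ATPase, had the lowest adjusted p of the AsV rises. It had 1635, 1319 and 2022 normalized counts in fish 1, 2 and 3 at 50 µM AsV and 1587, 1561 and 1177 at 100 µM, against 379, 388 and 387 in their AsV controls. Every exposed value was above every control value, with changes of 2.08 ± 0.24 (adjusted p = 3.79e-04) and 1.89 ± 0.24 (adjusted p = 9.47e-04). The beclin 1 regulator-like gene LOC106611244 had 663, 502 and 586 at 50 µM AsV and 627, 786 and 590.3 at 100 µM, against 293, 243 and 196 in AsV controls. Here too no value overlapped, and the changes were 1.26 ± 0.25 (adjusted p = 0.00855) and 1.46 ± 0.25 (adjusted p = 0.00453). The ATG16-2-like gene LOC106613341 had 277, 252 and 339 at 50 µM AsV and 312, 404 and 178.3 at 100 µM, against 79.2, 82.6 and 71.8 in AsV controls, with changes of 1.87 ± 0.33 and 1.85 ± 0.33. The LAPTM4B-like gene LOC106605533 had 1433, 1428 and 4112 at 50 µM AsV and 3605, 3594 and 1143 at 100 µM, against 509, 526 and 417 in AsV controls, with changes of 2.08 ± 0.45 and 2.35 ± 0.45. Both genes were higher in all 3 fish at both doses, without overlap. The cathepsin D-like gene LOC106592547 changed by 0.80 ± 0.20 and 0.74 ± 0.20, and scarb2 fell by 0.92 and 0.98 (SE 0.24 each). LOC106580040, the lysosome membrane protein 2-like gene, fell by 1.42 and 0.99 (SE 0.23 each). The LOC106571673 call at 100 µM AsV was lost without fish 1, with adjusted p from 6.10e-04 to 0.0582 over the alternatives. The LOC106580040 call at 50 µM AsV was lost without fish 1, with adjusted p from 0.00165 to 0.0665 over the alternatives. The LOC106580040 call at 100 µM AsV was lost without fish 1, 2 or 3, with adjusted p from 0.0101 to 0.256 over the alternatives. Of the calls just given for LOC106611244, LOC106613341, LOC106605533, LOC106592547 and scarb2, each was lost without at least 1 of the 3 fish, with adjusted p from 0.0596 to 0.359. With library-size scaling the LOC106592547 call at 100 µM (adjusted p = 0.0507) and the scarb2 call at 50 µM (adjusted p = 0.0507) were also lost.

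AsB, an organic arsenic compound abundant in marine fish, gave 0 calls at any dose in limma among the genes that passed the filter on low values, which were all but 1. At each of 10, 50, 100 and 500 µM, 0% of all genes rose and 0% fell. Members with an unadjusted p under 0.05 numbered 7, 3, 6 and 2 at those doses, and edgeR also called 0 at each. These were 3.95%, 1.69%, 3.39% and 1.13% of the members tested, against 3.1%, 2.13%, 2.8% and 3.33% of all genes. Median changes of the members were 0.03, 0.00, 0.03 and 0.04. The gene left out was LOC106563054, a V-ATPase subunit B-like gene. The AsB libraries show how much these genes vary without a called change: LOC106605533 had 292 to 469 (median 391.6) normalized counts at 500 µM AsB and 166.6 to 696 (median 438) in AsB controls. LOC106571673 had 239.9 to 386 (median 361) at 500 µM AsB and 367 to 493 (median 384) in AsB controls. In both genes the groups overlapped. bloc1s5 ranged from 135 to 405 in AsB controls alone.

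AsIII, the trivalent oxyanion, and AsV, the pentavalent one, were compared at the doses they share, as the difference of each response from its own control. At 100 µM most of the genes that were lower in the AsIII response belonged to the V-ATPase or the cathepsins. There 7 were higher and 43 lower in the AsIII response, where 6.82% of all genes were higher and 7.27% lower. The median difference was -0.27, against 0.09 for all genes. Of 42 V-ATPase genes 1 was higher and 21 lower, of 25 cathepsins 1 and 8, and of 27 membrane genes 3 and 7. Differences were ranked by size among called genes with a mean of 50 or more normalized counts. The largest downward were those of V-ATPase subunit E 1-like LOC106609471 (-2.26 ± 0.25, adjusted p = 3.30e-10), subunit D LOC106571673 (-2.25 ± 0.29, adjusted p = 2.16e-08) and the beclin 1 regulator-like gene LOC106611244 (-1.94 ± 0.31, adjusted p = 2.71e-06). The E 1-like gene had 116 to 181 (median 169.8) normalized counts at 100 µM AsIII, below its controls, and 668, 718 and 724 at 100 µM AsV, against 524, 563 and 477 in AsV controls. Upward, the V-ATPase subunit a gene atp6v0a1 differed by 2.34 ± 0.55 (adjusted p = 0.00142), the lysosome membrane protein 2-like gene LOC106568513 by 1.52 ± 0.50 and the AMBRA1-like gene LOC106573031 by 1.39 ± 0.33. Of the ATG8 family 0 of 10 were higher and 1 was lower, the LC3B gene LOC106573632 (-0.76 ± 0.25). For map1lc3a the difference was -0.63 ± 0.31, with an adjusted p of 0.193. The scatter of both responses shows the called genes lying mostly below the line of equal response. The LOC106573031 call for the AsIII and AsV difference at 100 µM was lost without fish 2, with adjusted p from 2.78e-04 to 0.07 over the alternatives. The LOC106573632 call for the AsIII and AsV difference at 100 µM was lost without fish 2, 3 or 5, with adjusted p from 0.00374 to 0.353 over the alternatives. The LOC106568513 call for the AsIII and AsV difference at 100 µM was lost without fish 2, 4 or 5, with adjusted p from 0.0159 to 0.12 over the alternatives.

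**Figure D5:**
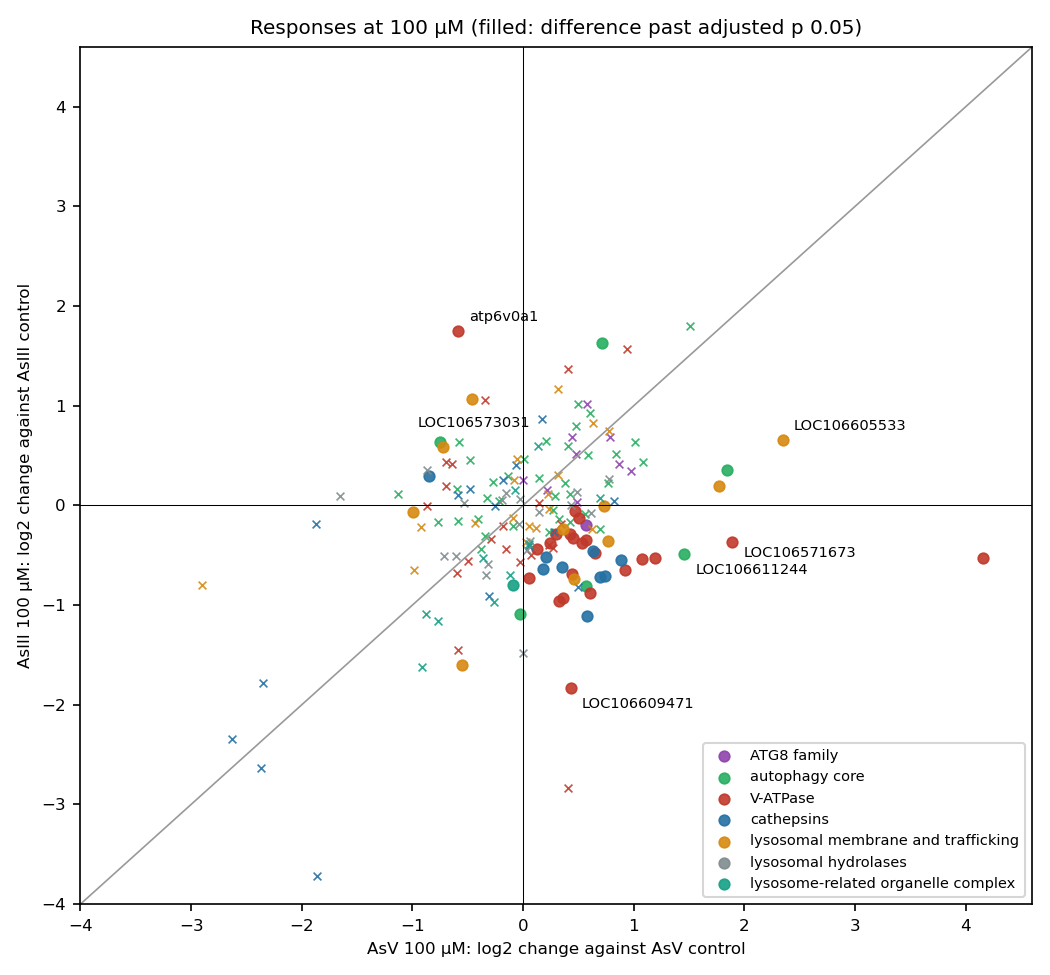
Log2 change at 100 µM AsIII against AsIII control (y axis) and at 100 µM AsV against AsV control (x axis) for the genes of 7 roles, coloured by role. Filled points differ between the responses at an adjusted p of 0.05 or less, crosses do not, and the diagonal marks equal change. Over all the genes, with the 2 of no role that are not drawn, 7 were higher and 43 lower in the AsIII response.

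At 10 µM, where no gene passed under AsV, 13 were higher and 6 lower in the AsIII response than in the AsV response (all genes, 6.94% and 3.74%). As shares of the members tested, both counts lay near those over all genes. With library-size scaling 7 were higher and 27 lower, with fish as a block 21 were higher and 10 lower, and without fish 3 there were 11 calls in place of 19. LOC106605533 differed by 3.45 ± 0.40 (adjusted p = 1.05e-09), LOC106579220 by 2.76 ± 0.31 and LOC106613341 by 2.31 ± 0.50. On the low side LOC106586760 differed by -1.56 ± 0.35, LOC106609471 by -0.93 ± 0.25 and LOC106612721 by -0.89 ± 0.18. Against AsB, 22 were higher and 21 lower in the AsIII response at 10 µM (all genes, 11.6% and 8.38%), and 10 and 41 with library-size scaling. The 22 lay near the share over all genes. At 100 µM 9 were higher and 30 lower (all genes, 7.31% and 5.88%). At 100 µM 10 V-ATPase, 7 cathepsin and 6 BLOC-1 genes were lower under AsIII than under AsB. The AsV response against AsB had 0 members higher and 0 lower at 10 µM in limma (all genes, 0% and 0%), and 0 in edgeR. There 3 members (1.69%) had an unadjusted p under 0.05 in limma, against 1.92% of all genes. At 50 µM 20 were higher and 5 lower under AsV (all genes, 5.16% and 4.41%), and at 100 µM 21 were higher and 4 lower (all genes, 5.81% and 3.97%). With fish as a block these became 32 higher and 8 lower at 50 µM, and 30 and 8 at 100 µM. Leaving out fish 3 took the 25 calls at 50 µM to 4, and leaving out fish 1, 2 or 6 took the 25 at 100 µM to 11, 11 and 15. LOC106571673 was higher on the AsV side, with a difference of 2.32 ± 0.29 at 50 µM (adjusted p = 1.89e-08) and 2.13 ± 0.29 at 100 µM (adjusted p = 1.81e-07). These comparisons share control and exposed libraries with one another. The LOC106609471 call for the AsIII and AsV difference at 10 µM was lost without fish 1 or 3, with adjusted p from 2.81e-04 to 0.219 over the alternatives.

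A further 138 genes act on the same route without the words of the rule, such as its kinases, its transcription factors, its Rab proteins and other lysosomal enzymes. Of these, 51 rose and 32 fell at 3 µM AsIII, 39 rose and 31 fell at 10 µM, 35 rose and 32 fell at 30 µM and 34 rose and 40 fell at 100 µM. Under AsIII 37%, 28.3%, 25.4% and 24.6% of them rose (all genes, 29.5%, 26.8%, 23.9% and 22.6%) and 23.2%, 22.5%, 23.2% and 29% fell (all genes, 25%, 20.5%, 17.7% and 17.3%), so that both shares at 10 µM, the share that rose at 30 and 100 µM and the share that fell at 3 µM were near those over all genes. With library-size scaling 37 rose and 52 fell, 23 rose and 59 fell, 28 rose and 47 fell and 31 rose and 47 fell at those doses. Under AsV 18 rose and 2 fell at 50 µM (13% and 1.45%; all genes, 4.23% and 2.74%) and 21 rose and 2 fell at 100 µM (15.2% and 1.45%; all genes, 4.47% and 2.21%). Of these AsV calls, 19 of 20 at 50 µM and 23 of 23 at 100 µM were lost when 1 of the 3 fish was left out, and with library-size scaling 12 rose and 1 fell at 50 µM and 11 rose and 1 fell at 100 µM. At 3 µM AsIII the largest changes were rises. LOC106589466, legumain-like for an asparagine-specific lysosomal protease, rose by 3.17 ± 0.38 (adjusted p = 1.69e-08), and LOC106575622, FUNDC1-like for a mitophagy receptor, by 2.56 ± 0.11. LOC106579916, like the kinase ULK1 that starts autophagy, rose by 2.10 ± 0.18, lamtor1, whose protein anchors mTORC1 to the lysosome, by 1.94 ± 0.12, and LOC106583139, like the lysosome gene activator TFEB, by 1.93 ± 0.44. At 100 µM LOC106589466 was still higher (2.52 ± 0.38, adjusted p = 3.41e-06), as were LOC106572415, like the related factor MITF (1.64 ± 0.47), LOC106562628, VPS33B-like (1.56 ± 0.32), and tecpr2 (1.55 ± 0.12). LOC106579849, like the late endosome GTPase Rab-7a, fell (-2.05 ± 0.71, adjusted p = 0.0226), a call that was lost without fish 5.

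Over the 14 group means, the genes nearest in pattern to the LAPTM4B-like gene LOC106579220 were the lysosomal acid lipase-like LOC106578958 (Spearman 0.982), the GABARAP-like 2 gene LOC106594419 (0.974) and its copy LOC106587940 (0.886). Nearest to bloc1s5 were the V-ATPase subunit H gene LOC106595987 (0.824), the BLOC-1 subunit 3-like gene LOC106612721 (0.824) and the cathepsin K gene catk (0.815). These are descriptions over group means that share fish and controls.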

How the data were processed

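RNA was sequenced from 72 cultures in 14 groups. The authors deposited 1 table of normalized signal per gene and library, which are read counts divided by a size factor for each library. Per the submitters' processing notes, HISAT2, featureCounts of Subread and DESeq2 1.40.2 were used; the genome build is not given in the sources used here. Every value checked gave a whole read within 0.01 after its step was recovered (100% of values checked), with 30915262 to 86419022 reads per library. Values with many reads were left out of this check. Each of the 25830 genes in the table reaches 10 normalized counts in no fewer than 10 libraries.

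Because the values are normalized, limma 3.58.1 (trend and robust, R 4.3.3) was fitted on log2(value + 1), a scale that understates changes of low genes, to all libraries of a compound. Genes had to reach 10 normalized counts in a number of libraries equal to the size of the smallest group: all members passed in the AsIII and AsV fits and all but 1 in the AsB fit. Differences between responses came from 1 fit over all 72 libraries. P-values were adjusted by Benjamini-Hochberg over all genes tested, with a threshold of 0.05. Alternatives were a pseudocount of 10, no filter, library-size scaling, fish as a block, edgeR 4.0.16 on the recovered reads and leaving out each fish. The main fit was also run on simulated counts with known changes. Those counts were drawn independently for each library, with 1 dispersion for all genes and no fish effect. That run therefore cannot show how cultures of the same fish affect the p-values. Added after the data were seen was a fit without the 2 AsIII libraries with the most genes at 0.

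The same number marks the same fish. Deviations of libraries of the same fish correlated on average at 0.449 for AsIII, 0.228 for AsV and 0.252 for AsB. The main fits held no term for fish, so cultures of the same fish entered as if independent. Their p-values measure the spread between libraries within groups. Among the tests, pairing by fish entered only in the fits with fish as a block. Members were named by size of change among those past the threshold with a mean of 50 or more normalized counts. Against controls they also had to change in the same direction in every fish, a condition not set for steps and differences. The beclin 1, LC3, GABARAP, LAMP1, LAMP2 and cathepsin B, D and L genes were chosen by name. Other members are said to be picked after their values were seen. Members and lists were chosen with earlier results of these data known.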

Additional observations from a re-analysis of the deposited data

Results flagged for a closer look

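Some libraries stood far from the other 5 of their group in the genes whose values were given per library, by a gap that took up more than Dixon's 95% critical share of the group's range. Of 200 groups tested, 12 held such a library, and chance alone gives about 1 in 20. LOC106611244 had 246 normalized counts in fish 5 at 10 µM AsIII, above the nearest other library at 195. At 10 µM AsB, fish 2 had 38.7 normalized counts of LOC106613341, below the nearest other value of 77.4. LOC106613341 had 249.9 normalized counts in fish 5 at 100 µM AsB, above the nearest other library at 124. In AsIII controls, fish 4 had 266 normalized counts of LOC106571673, below the nearest other value of 353. LOC106609141 had 472 normalized counts in fish 5 at 100 µM AsIII, above the nearest other library at 344. At 100 µM AsIII, fish 4 had 116 normalized counts of LOC106609471, below the nearest other value of 163.4.

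atp6v0a1 had 351 normalized counts in fish 4 at 3 µM AsIII, above the nearest other library at 227. At 30 µM AsIII, fish 5 had 3316 normalized counts of LOC106592547, below the nearest other value of 4210.4. LOC106581974 had 1783 normalized counts in fish 4 at 50 µM AsB, above the nearest other library at 1503. At 100 µM AsB, fish 4 had 2242 normalized counts of LOC106581974, above the nearest other value of 1494. scarb2 had 3430.1 normalized counts in fish 5 at 100 µM AsB, above the nearest other library at 2606. In AsIII controls, fish 6 had 981 normalized counts of LOC106595381, above the nearest other value of 731.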

How the results depend on the processing

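Counts of called members stayed within 1.5 times under a pseudocount of 10, no filter and edgeR in all comparisons. Library-size scaling moved the count for the AsIII and AsV difference at 10 µM from 19 to 34. In the paired fit with fish as a replicate block the count was 31 for that difference, 6 for the step from 30 to 100 µM AsIII, and 40 and 38 for the AsV and AsB difference at 50 and 100 µM; the block moved no other count by over 1.5 times. Leaving out 1 fish gave 1 to 4 calls at 50 µM AsV and 0 to 20 at 100 µM AsV. It gave 11 to 18 for the AsIII and AsV difference at 10 µM, and 4 to 27 and 11 to 25 for the AsV and AsB difference at 50 and 100 µM. The AsIII counts ranged from 106 to 117 at 3 µM and from 73 to 83 at 100 µM. The cause of these shifts was not tested.

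Some changes at 3 µM AsIII that did not pass turned sign. With library-size scaling the log2 changes were -0.0709 for map1lc3b, -0.125 for gbrap, -0.0961 for LOC106607447, -0.101 for LOC106560797 and -0.212 for lamp2. In edgeR they were -0.0132 for lamp2 and 0.146 for LOC106584253. For LOC106611360 they ran from -0.0824 to 0.00466 when 1 fish was left out, with 0.00311 without fish 2. AsV results rest on 3 fish, and a gene copy's value depends on how shared reads were counted.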

Other observations

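The WIPI proteins bind the lipid made by the beclin 1 complex and bring in the machinery that extends the membrane. Of their 11 genes, gathered after their values were seen, 6 rose and 1 fell at 3 µM AsIII (54.5% and 9.09%; all genes, 29.5% and 25%), and 3 rose and 2 fell with library-size scaling. LOC106606228, LOC106594630 and LOC106610342, all WIPI1-like, rose by 1.20 ± 0.30, 1.09 ± 0.20 and 0.41 ± 0.15, and LOC106610342 was still higher at 100 µM (0.64 ± 0.15). The gene that fell was wipi1 itself (-0.96 ± 0.29, adjusted p = 0.00607), and at 100 µM it stood at 0.11 ± 0.29. The LOC106610342 call at 3 µM AsIII was lost without fish 3 or 5, with library-size scaling and in edgeR, with adjusted p from 0.00763 to 0.4 over the alternatives.

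Also picked after its values were seen, the membrane gene LOC106581440, named for a lysosomal amino acid transporter that in mammals exports basic amino acids, fell by 1.88 at 3 µM AsIII (SE 0.36, adjusted p = 4.01e-05), below every control. At 50 µM AsV it also lay below every control, with a change of -3.18 ± 1.02 that did not pass (adjusted p = 0.0783). The V-ATPase subunit a isoform 2-like gene LOC106563184, picked in the same way, rose by 3.24 ± 0.61 at 3 µM AsIII and stood at 4.16 ± 1.33 at 100 µM AsV without passing (adjusted p = 0.0771), again with no overlap with the controls. This gene had few reads under AsV, with 43.1, 47.6 and 10.9 normalized counts at 100 µM AsV, against 0, 3.48 and 0 in AsV controls. At 50 µM AsV it had 4.68, 2.04 and 81.4, which overlapped the controls. The size of a log2 change from control counts this near 0 is uncertain.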
